A study of Danio rerio with 11 samples.

Results

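The genes described here are the homeobox and paired-domain transcription factors outside the Hox clusters that the zebrafish array measures. They were chosen by name, as probe sets annotated with 1 gene symbol that begins with the family name Pax, Nkx, Irx, Dlx, Lhx, Isl, Msx, Otx, Gbx, Emx, En1, En2, Vsx, Meis, Pbx, Pitx, Prrx or Evx, or with that of the sine oculis family (six2a, six4a and relatives). pax2a, pax8 and lhx1a were left out. This gave 103 of the 15502 probe sets tested, for 88 of the 8793 genes that a probe set names alone. Of these, 5 genes share only the letters of the name and encode no homeodomain or paired domain: islr2, paxbp1, paxip1, pbxip1a and pbxip1b. The other 83 are 8 Pax, 10 Nkx, 7 Irx, 8 Dlx, 8 LIM-homeobox, 10 sine oculis, 5 Msx, 9 Meis and Pbx, 2 Prrx and 2 Evx genes and 14 genes of the Otx, Gbx, Emx, En and Vsx families. No pitx probe set was found under the rule.

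The study compared spt embryos, homozygous for the b104 allele of tbx16 (spadetail), with their wild-type (+/+) relatives at 2 stages. All embryos descended from a cross with a line in which the pax2a promoter drives GFP. At 4/5 somites the arrays hold amplified RNA of small pools of sorted GFP-positive cells, which the study took as intermediate mesoderm (IM), from GFP-positive embryos cut off in front of the first somite, with 2 wild-type and 3 spt arrays. At 21 somites they hold unamplified RNA of the middle tail without its tip, pooled over many embryos, with 3 wild-type and 3 spt arrays, and this tissue holds somites, unsegmented mesoderm, spinal cord, notochord and IM. RNA extractions were made from separate clutches. A sort on a pax2a reporter keeps whichever cells the promoter marks. The study excluded many dead and dying cells by their morphology profile in the sorter, and no dye against dead cells was used.

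Homeodomain proteins bind short DNA motifs and set positional identity along the body axes and within the neural tube, and many act in combination. Pax proteins carry a paired domain. The intermediate mesoderm gives rise to the pronephros and, in zebrafish, to primitive red blood cells, and Pax, Lhx1 and, in the mouse, Six2 and Emx2 act in kidney formation. Otx, Gbx, Emx and En genes are best known for dividing the brain into regions, Dlx and Msx genes for ectoderm, fin fold and neural crest, and Meis and Pbx proteins as partners of Hox proteins.

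Signals are Affymetrix brightness values after quantile normalization, and a higher probe set is not a more abundant transcript than another probe set's, so levels are compared only within a probe set. In the deposited signals, before that step, between 67.6% and 71.1% of all probe sets reached a signal of 100 at 4/5 somites, and between 80.8% and 84.8% at 21 somites. Of the 88 genes, 41 were at or above 100 on all 5 arrays of the earlier stage and 17 on none, against 63 and 10 on the 6 arrays of the later stage. tbx16 itself was low in the sorted cells, at mean signals of 102.4 in wild type and 90.56 in spt. In the tail it was at 1246 and 426, a log2 fold change of -1.49 (SE 0.18, limma adjusted p = 0.0065). Of the pronephros markers, hnf1bb stood at mean signals of 5475 and 6748 in wild-type and spt sorted cells, ret at 895.9 and 579.7, trpm7 at 712.9 and 319.9 and cdh17 at 507 and 776.5, none of them past the test. The log2 fold change of cdh17 was -0.51 (SE 1.47), opposite in sign to the order of its means. podxl was at 131.8 and 118.5, gata3 at 147.5 and 225.5 and clcnk at 176.2 and 165.2, whereas wt1a, slc20a1a, atp1a1a.4 and atp1a1a.5 were under 100 in both. Red blood cell markers summed to 24964 to 29004 on the wild-type IM arrays and to 6176 to 8102 on the spt IM arrays. The authors had left out another wild-type IM array, which did not cluster with these. They also found red blood cell markers such as gata1 to be far lower on it. The difference between these sums was therefore set in part by which arrays were kept.

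**Figure D1:**
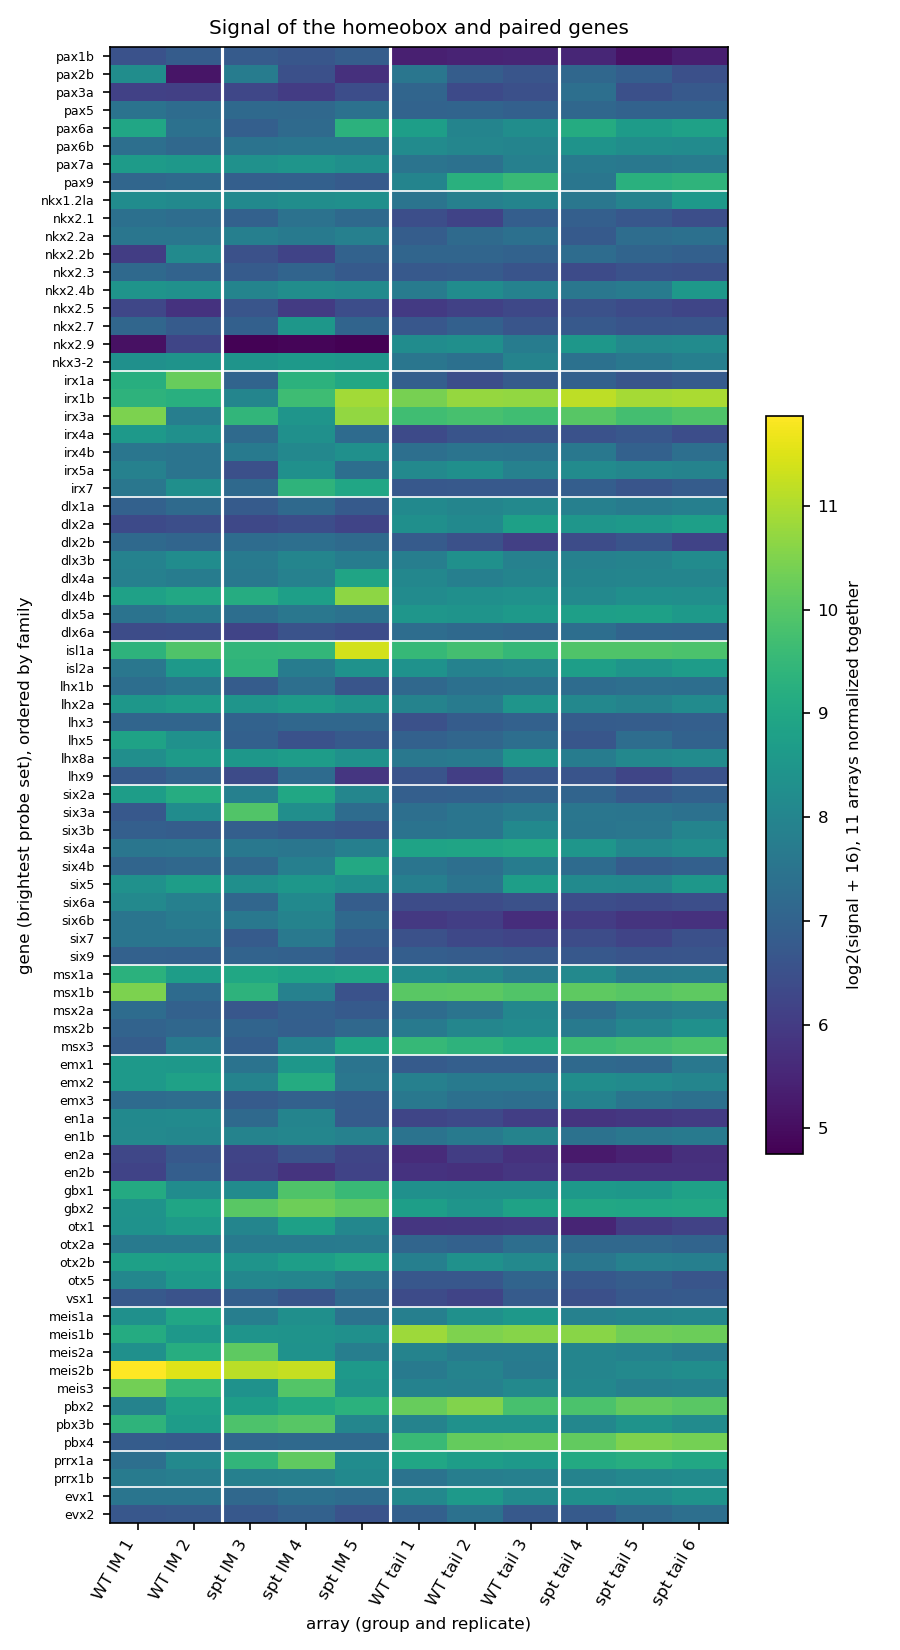
Signal of all but 1 of the 83 homeobox and paired genes on the 11 arrays, as log2(signal + 16) by colour after the 11 arrays were normalized together, with genes in rows by family and arrays in columns by group. Colours are to be compared along a row only: meis2b, otx1 and irx1a are brighter in IM than in the tail, pbx4, nkx2.9 and dlx2a darker, and several rows differ among the 3 spt IM arrays.

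The arrays of sorted cells spread more widely than those of the tail. The pooled SD within groups had a median of 0.26 on the log2 scale over the 103 probe sets at 4/5 somites and 0.19 at 21 somites, and its 90th percentile was 1.1 and 0.38. Over all probe sets the medians were 0.29 and 0.20. The highest array was at least 4 times the lowest for 14 of the 88 genes in the spt IM group, for 3 in the wild-type IM group and for 0 in either tail group. msx1b, a marker of dorsal neural tube and fin fold, shows the size of this spread, at 1397 and 101 in wild-type IM and at 504, 157 and 61.3 in spt IM. In the tail the same gene was at 1111, 1132 and 1045 in wild type and at 1156, 1103 and 1152 in spt. isl1a, a LIM-homeobox gene of motor and sensory neurons, was at 509 and 850 in wild-type IM and at 542, 559 and 2971 in spt IM, where 1 array alone was high. pax2b, the paralog of the reporter's own gene, was at 202 and 19.0 in wild-type IM and at 144, 58.6 and 33.1 in spt IM, so that the 2 wild-type arrays enclosed all spt arrays.

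Different genes stood out on different spt IM arrays. Replicate 4 was at least 1.5 times above both other spt arrays for 15 of the 103 probe sets (14.6%), against 8.86% of all probe sets, among them emx1, emx2, en1a, irx4a, irx5a, lhx9, meis3, nkx2.7, otx1, paxbp1, prrx1a, six2a, six6a and six7. Replicate 5 was above the others for 10 probe sets (9.71%, against 7.7% of all), among them dlx4a, dlx4b, irx1b, irx3a, isl1a, msx3, pax6a and six4b. Replicate 3 was above for 5 (4.85%, against 7.75%): isl2a, meis2a, msx1b, pax2b and six3a. The arrays in turn lay as far below both others for 8 probe sets in replicate 3 (7.77%, against 5.42% of all), 2 in replicate 4 (1.94%, against 6.92%) and 6 in replicate 5 (5.83%, against 5.96%).

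The first question was whether loss of tbx16 changes these genes in the sorted IM cells. No probe set of the 103 passed the test at an adjusted p of 0.05 in the limma fit, nor did any of the 15502 (0.0% called). At an unadjusted p under 0.05 there were 2 higher and 4 lower in spt, or 5.83% of the 103, against 7.2% of all probe sets (3.57% higher and 3.63% lower). The spt arrays lay wholly above the wild-type arrays for 12 probe sets and wholly below for 19, together 30.1%, against 26.8% of all (12.4% above and 14.5% below). The median log2 fold change of spt over wild type was -0.06 for the 103 and -0.01 for all, with 47 above 0 and 56 below.

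lhx5, a LIM-homeobox gene known from the forebrain, had the smallest p among them. Its signals were 327 and 220 in wild-type IM and 82.0, 62.2 and 72.0 in spt IM. Every spt array was under 100 and both wild-type arrays were well above. The log2 fold change was -1.70 (SE 0.22, limma adjusted p = 0.214), between -1.98 and -1.42 when any 1 array was left out. Over all alternatives its adjusted p ran from 0.192 to 0.425. gbx2, which positions the boundary between midbrain and hindbrain, differed the other way. Its signals were 232 and 355 in wild-type IM and 956, 1208 and 1013 in spt IM, without overlap. The log2 fold change was 1.82 (SE 0.35, limma adjusted p = 0.464), with an adjusted p of 0.219 to 0.865 over the alternatives. Neither difference passed the test. Neural markers summed to 12813 and 12019 on the wild-type and to 9149, 10093 and 10444 on the spt IM arrays. The brightest, sox3, weighs heavily in these sums, with means of 5118 and 3207. Of the 22 markers, 7 (31.8%, against 14.5% of all) were wholly lower in spt and 2 wholly higher (against 12.4% of all). The median log2 fold change of the list was -0.14, with 8 genes above 0 and 14 below. In it 0 passed the adjusted test and 2 had an unadjusted p under 0.05, against 7.2% of all probe sets. The part of these markers in the lhx5 and gbx2 values was not tested.

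**Figure D2:**
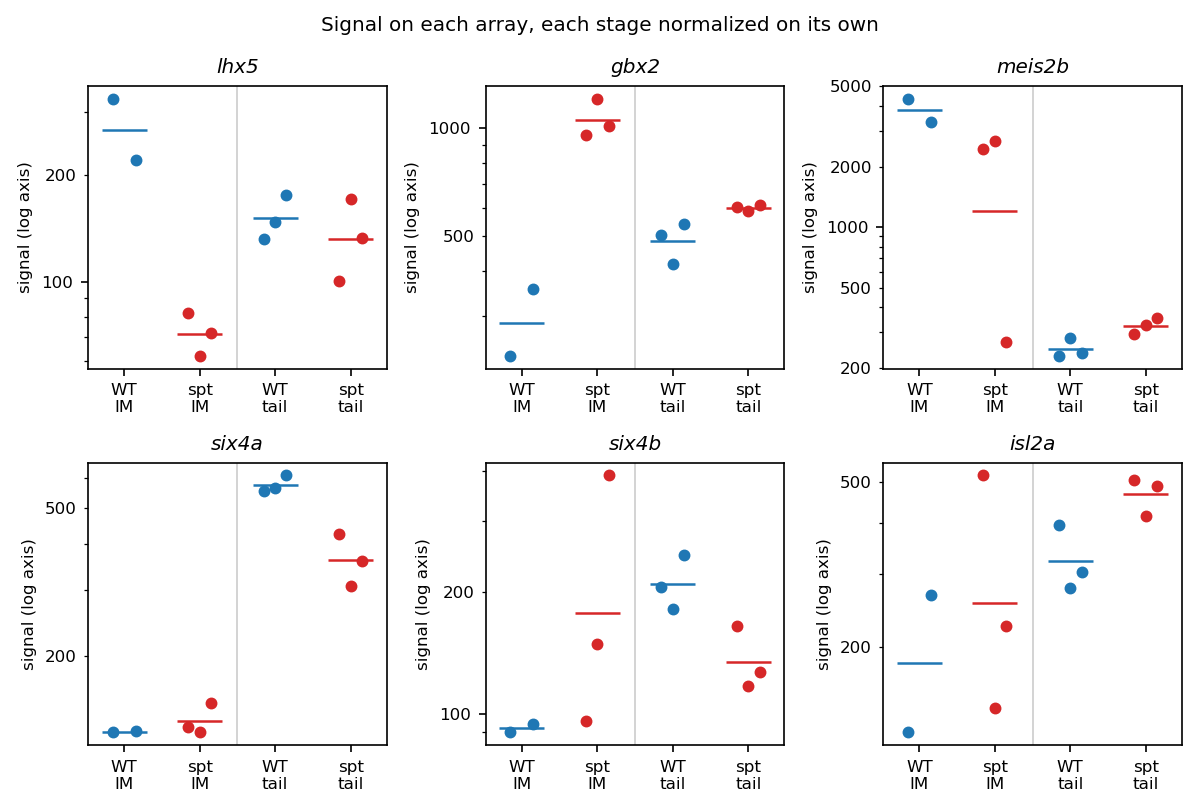
Signal on each array (log axis) for 6 genes in wild-type (WT) and spt IM and tail, each stage normalized on its own, with points for arrays and lines for geometric means. lhx5 lies lower and gbx2 higher on all 3 spt IM arrays, 1 spt IM array of meis2b is at 268 and 1 of six4b at 390, and six4a and six4b lie lower and isl2a higher on the 3 spt tail arrays.

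The remaining genes with the smallest p and groups apart differed by less or were carried by few arrays. prrx1a, a gene of limb and skeletal mesenchyme, was at 108 and 183 in wild-type IM and at 548, 1042 and 196 in spt IM, a log2 fold change of 1.68 with an SE of 0.73. In six4b, whose mouse counterpart acts in muscle precursors, the spt arrays were at 96.0, 149 and 390 against 90.1 and 94.2. Here 1 spt array made most of the difference, where prrx1a was high on 2. pbx4, the Pbx gene required for much Hox function in zebrafish, was at 75.7 and 71.8 in wild-type IM and at 91.3, 97.7 and 97.2 in spt IM, all under 100, with a log2 fold change of 0.31 (SE 0.12). irx4b, nkx2.2a and pax6b were higher in spt by 0.45, 0.23 and 0.20 on the log2 scale.

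Among the genes lower in spt, several had the same layout, with 2 spt arrays low and replicate 4 close to wild type, of which en1a, emx1 and irx4a did not overlap between genotypes. en1a was at 184 and 191 in wild-type IM and at 96.1, 166 and 73.5 in spt IM. emx1 was at 260 and 255 against 116, 250 and 119. irx4a was at 265 and 214 against 98.4, 213 and 99.8. In all 3 genes spt replicate 4 was under the lower wild-type array, whereas in six2a, six6a and six7 it lay within or above the wild-type arrays. Without that array 21 of the 103 probe sets had an unadjusted p under 0.05, against 6 with it, and over all probe sets the number rose to 2651 from 1116, with 0 of either passing after adjustment. meis1a did not overlap either, with a log2 fold change of -0.80 (SE 0.36), though its probe set is of a kind that can match more than 1 transcript. emx3 was at 100 and 105 against 74.1, 83.7 and 75.2, a log2 fold change of -0.34 (SE 0.12).

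The Meis and Pbx genes, partners of Hox proteins, were spread on both sides of 0 in these cells. meis2b was at 4337 and 3323 in wild-type IM and at 2440, 2666 and 268 in spt IM. The groups did not overlap, but replicate 5 stood far below the other spt arrays, and the log2 fold change of -1.63 (SE 1.07) became -0.58 without it. meis3 was at 1253 and 559 against 226, 883 and 241. pbx2 was at 163 and 321 against 294, 403 and 484. Of the 9 genes 4 had a log2 fold change above 0 and 5 below, with a median of -0.51, and none passed the test.

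**Figure D3:**
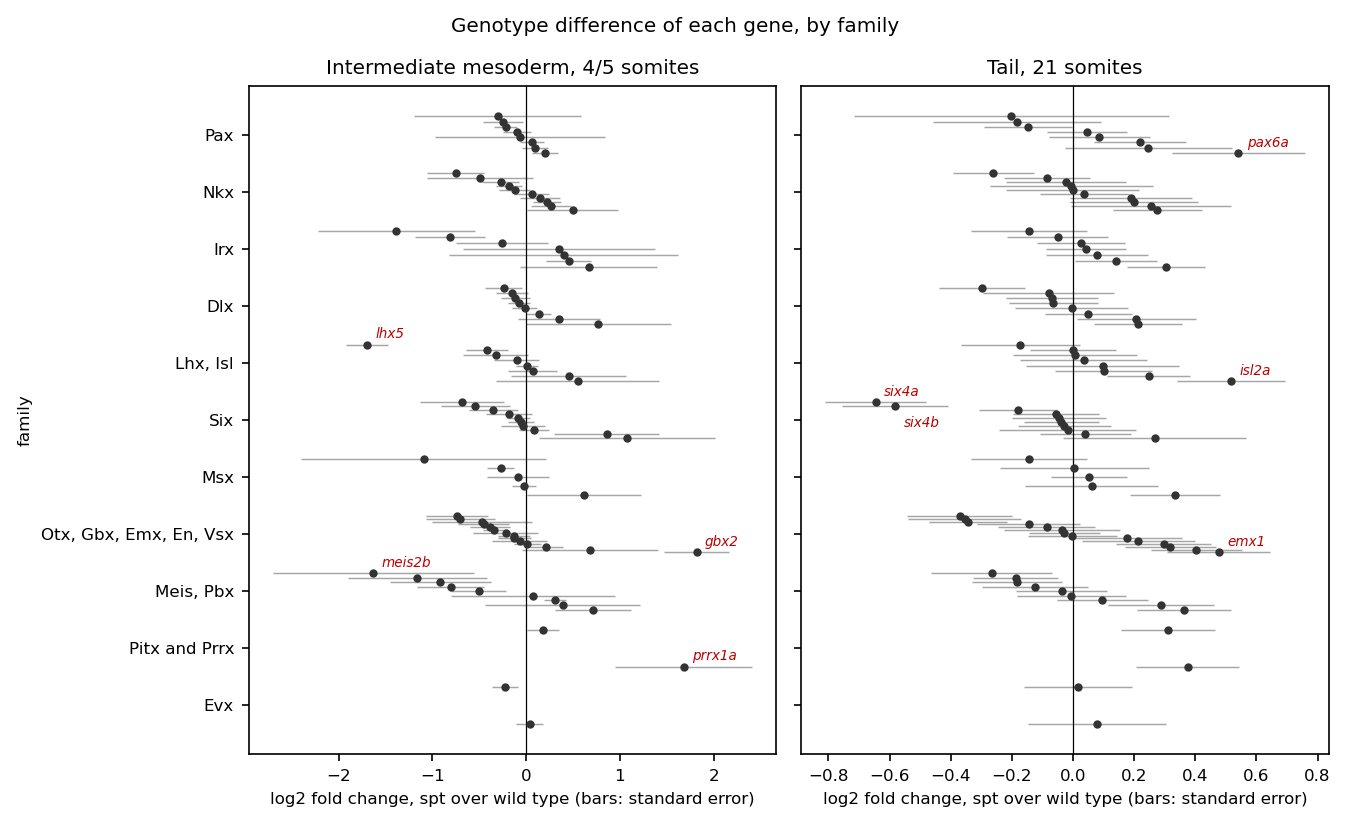
log2 fold change of spt over wild type for each of the 83 homeobox and paired genes by family, in IM (left) and tail (right), with points for genes and bars for 1 standard error from limma. The horizontal axes differ: IM values run from -1.70 to 1.82 and tail values from -0.65 to 0.54, and no gene passed the test in either panel.

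At 21 somites the question was asked of the whole middle tail, where a lower signal from fewer cells of a type cannot be told apart from less RNA per cell. Again 0 of the 103 probe sets passed the limma test at an adjusted p of 0.05, where 107 of all 15502 did (0.69%), 28 higher (0.181%) and 79 lower (0.51%). At an unadjusted p under 0.05 there were 6 higher and 4 lower in spt, 9.71% of the 103 against 7.44% of all (3.91% higher and 3.54% lower). The 3 spt arrays lay wholly above the 3 wild-type arrays for 13 probe sets and wholly below for 7, together 19.4% against 12.2% of all (6.01% above and 6.2% below). The median log2 fold change was 0.00 for both the 103 and all probe sets.

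The paralogs six4a and six4b had the smallest p of the genes lower in spt tails. six4a was at 553, 564 and 611 in wild-type tails and at 425, 308 and 361 in spt tails. six4b was at 206, 182 and 247 against 165, 117 and 127. Both were lower on every spt array than on any wild-type array. The log2 fold change was -0.65 (SE 0.16, limma adjusted p = 0.206) for six4a, with an adjusted p of 0.171 to 0.852 over the alternatives. It was -0.58 (SE 0.17, limma adjusted p = 0.324) for six4b. The 8 remaining genes of that family were between -0.18 and 0.27, with six9 at 122, 117 and 107 against 106, 95.6 and 97.9. en1a, which is also expressed in muscle pioneer cells, was low throughout, at 67.7, 73.5 and 58.5 against 45.2, 48.9 and 52.8. dlx1a, nkx2.3 and six9 were the other genes lower without overlap that the naming rule gave, at -0.30, -0.26 and -0.18.

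Beside the six4 genes stood the skeletal muscle markers, of which 9 of 22 fell and 0 rose in spt tails (limma, adjusted p under 0.05, against 0.51% and 0.181% of all probe sets). Their summed signal was 25539 to 29652 on wild-type and 13550 to 15527 on spt arrays, and the defining genes were detected in both, with myod1 at mean signals of 644.7 and 311.5 and myog at 1254 and 302.2. By the same rule presomitic and early paraxial mesoderm markers fell in 6 of 14 cases and red blood cell markers in 11 of 14. Their part in the six4 difference was not tested.

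The genes higher in spt tails were led by isl2a, a LIM-homeobox gene of motor neurons and Rohon-Beard sensory neurons. It was at 395, 279 and 304 in wild-type tails and at 506, 414 and 489 in spt tails. The spt arrays were all above the wild-type arrays, though the gap was small beside the wild-type spread, and the log2 fold change was 0.52 (SE 0.18, limma adjusted p = 0.441). emx1 was at 113, 125 and 124 against 159, 149 and 222, and emx2 at 270, 234 and 233 against 358, 334 and 297. irx1b, meis2b and msx3 were also higher without overlap, at log2 fold changes of 0.31, 0.36 and 0.33. pax6a, a gene of spinal cord progenitors, was at 506, 292 and 353 against 645, 483 and 540, with overlap, at 0.54 (SE 0.22). Neural markers summed to 17369 to 18985 on wild-type and 22975 to 23570 on spt arrays. Of the 22, 17 had a log2 fold change above 0, with a median of 0.30. Of these markers 0 passed the adjusted test, and 11 had an unadjusted p under 0.05, all higher, against 3.91% of all probe sets. Epidermal markers were above 0 for 12 of 13, with a median of 0.35. The part of these tissues in the isl2a, emx and pax6a values was not tested.

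By brightest probe set, prrx1b, gbx1, prrx1a and gbx2 were also higher in spt tails without overlap, at 0.37, 0.32, 0.31 and 0.30. So were isl1a, pax6b and dlx5a, at 0.25, 0.22 and 0.21. A dimmer meis1a probe set was lower without overlap, at -0.29, and en2a and otx2b were lower with overlap, at -0.37 and -0.35. Some other genes were close in the 2 genotypes of tail. msx1b differed by 0.05 (SE 0.12), evx1, a gene of the tailbud and of spinal interneurons, by 0.01 (SE 0.18), and otx2a by 0.00 (SE 0.15). pax9, a gene of the sclerotome, was at 293, 706 and 856 in wild-type tails and at 209, 712 and 764 in spt tails. In each genotype 1 array was far below the others, and the SE of 0.52 was the widest of the homeobox and paired genes at this stage. The pbx-interacting gene pbxip1b, which has no homeodomain, had the lowest value of the 88 genes, at -0.67 (SE 0.23), with signals of 329, 189 and 231 against 193, 141 and 115.

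Whether the genotype difference itself changed between the IM and the tail was tested as an interaction over all 11 arrays. The fit gave each probe set 1 spread for both stages, although the IM arrays as a whole spread more widely. Its SE can therefore be too small for the IM part. For gbx2 it was 0.33, under the 0.35 of the IM comparison alone, and for lhx5 it was 0.31 against 0.22. No member passed at an adjusted p of 0.05, where 75 of all probe sets did (0.484%, of which 0.232% higher and 0.252% lower). At an unadjusted p under 0.05, 4 were higher and 4 lower, 7.77% against 9.28% of all (4.41% and 4.87%). Closest were lhx5, whose spt difference was higher in the tail than in the IM by 1.53 on the log2 scale (SE 0.31, limma adjusted p = 0.0775), and gbx2, whose difference went the other way. In the tail lhx5 was at 132, 148 and 176 in wild type and at 101, 171 and 133 in spt, with overlap. gbx2 was at 504, 418 and 542 against 602, 586 and 609. The fitted gbx2 value was -1.52 (SE 0.33, limma adjusted p = 0.0970). emx1, six4a and six4b were at 1.18 (SE 0.39), -0.73 (SE 0.26) and -1.44 (SE 0.57), with limma adjusted p-values of 0.328, 0.365 and 0.451. Without wild-type IM replicate 2, which left 1 wild-type IM array, the fitted values were 1.81 for lhx5 and -1.85 for gbx2. The array kept lay further from the spt arrays in both genes. gbx2 passed without the variance trend, at an adjusted p of 0.0475 in limma, where 0.568% of all probe sets passed. lhx5 passed with the 11 arrays normalized together, at an adjusted p of 0.0474 in limma, where 0.542% of all did. Without spt IM replicate 4, 5 of 103 passed, irx4a, six6a, emx1 and emx2 among them, against 2.81% of all probe sets, and neither lhx5 nor gbx2 did.

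The last comparison sets the tail against the IM within each genotype. Stage, tissue, cell sorting and RNA amplification all change together in it and cannot be told apart. Its fit also gave each probe set 1 spread for both stages. After the 11 arrays were normalized together, 18 of the 103 probe sets were higher and 28 lower in wild-type tails than in wild-type IM at an adjusted limma p of 0.05 (17.5% and 27.2%), against 20.8% and 25.3% of all probe sets. In spt they were 21 and 31 (20.4% and 30.1%), against 21.9% and 26.6%. The direction depends on the scaling: with the deposited signals and no quantile step the split was 29 higher and 16 lower in wild type and 35 higher and 8 lower in spt, as the median of all probe sets moved from -0.12 to 0.41 and from -0.13 to 0.42. The calls described next held in 1 direction under all 3 scalings (arrays normalized together, by stage, or not at all). They were 18 higher and 16 lower in wild type (17.5% and 15.5%, against 20.4% and 10.3% of all) and 20 higher and 8 lower in spt (19.4% and 7.77%, against 21.4% and 10.5%). By gene, 16 were higher and 15 lower in wild type, 18 and 8 in spt, and 15 and 5 were shared. How many of all probe sets were shared between the genotypes was not counted, so the shared numbers have no share to be read against. Signals in the following paragraphs are those normalized together.

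**Figure D4:**
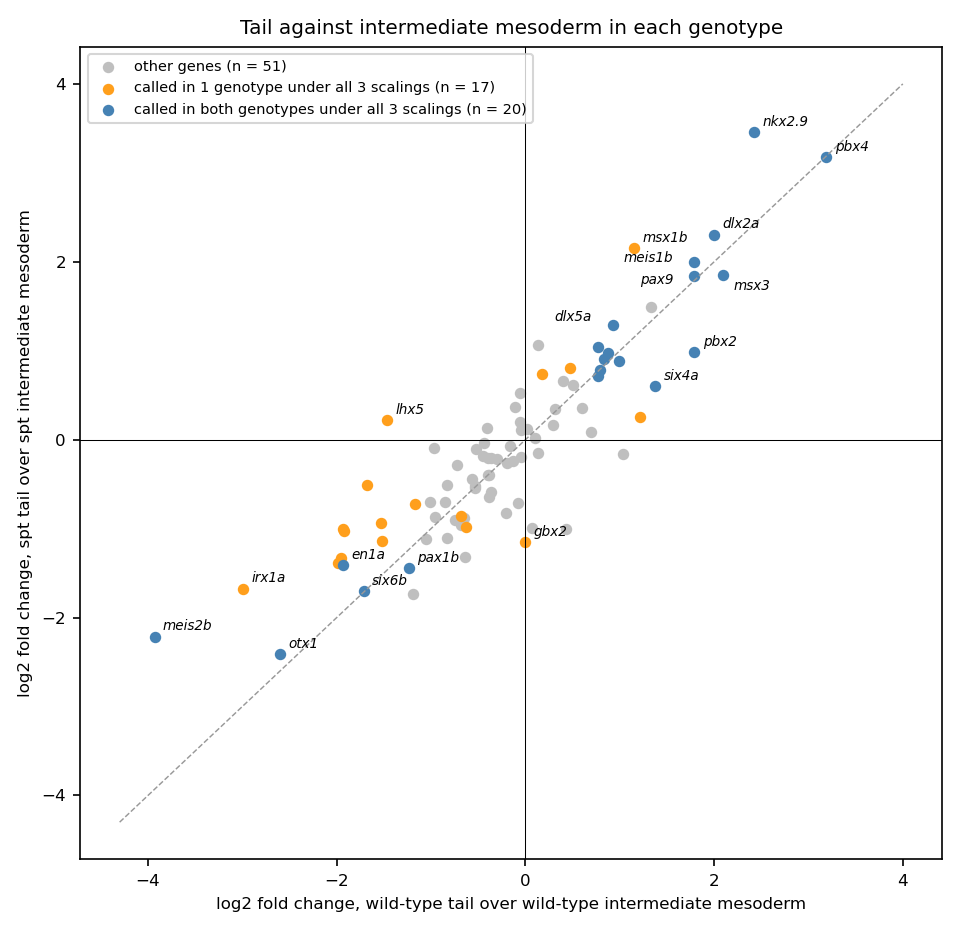
log2 fold change of tail over IM in wild type (horizontal axis) and in spt (vertical axis) for the 88 genes after joint normalization, 1 point a gene, with the dashed line at equal values. The 20 genes called in both genotypes under all 3 scalings (blue) run from otx1 and meis2b at the lower left to pbx4 and nkx2.9 at the upper right, and lhx5 and gbx2 lie off the line. The share of all probe sets called in both genotypes was not counted.

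The Dlx and Msx genes with kept calls, known from ectoderm and fin fold, were all higher in the tail. Other members of both families went the other way after joint normalization. There dlx2b was called lower in both genotypes, at log2 fold changes of -0.65 in wild type and -0.88 in spt. So was msx1a, at -1.05 and -1.12, and dlx4b was called lower in spt, at -1.31. These lower calls did not hold under every scaling. Of the 8 Dlx genes 4 rose in both genotypes, and these are 2 pairs of genomic neighbours, dlx1a with dlx2a and dlx6a with dlx5a. dlx2a, a gene of neural crest and forebrain, was at 65.7 and 72.7 in wild-type IM and at 297, 266 and 429 in wild-type tails. In spt it was at 62.7, 70.9 and 57.7 in IM and at 345, 369 and 422 in tails. All IM arrays were under 100, and the log2 fold change was 2.0 (SE 0.21) in wild type and 2.31 (SE 0.19) in spt. dlx5a was at 160 and 189 in wild-type IM against 344, 332 and 364 in the tail. The neighbours dlx3b and dlx4b, expressed in placodes and ear, were not among the calls kept, and dlx4b was at 561, 420 and 1603 in spt IM. Of the 5 Msx genes, msx2b and msx3 rose in both genotypes by their brightest probe sets, with msx3 at 99.1 and 188 in wild-type IM against 725, 640 and 554 in the tail. Without wild-type IM replicate 1 both wild-type calls were lost, at adjusted p-values of 0.0533 for msx2b and 0.0519 for msx3 in limma, and of the dimmer msx3 probe sets 1 was called lower in spt tails after joint normalization. msx1b and msx2a were called in spt and not in wild type, with no difference between the genotypes past the interaction test, and the msx1b call was lost when any of 8 of the 11 arrays was left out, with an adjusted p of up to 0.14 in limma.

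Of the 8 Pax and 10 Nkx genes, by brightest probe set, pax9, pax6b and nkx2.9 rose and pax1b fell in both genotypes. For pax7a a dimmer probe set was kept lower in wild type, at -1.56. Its brightest probe set was called lower in both genotypes after joint normalization, at -1.01 and -0.70, but not under all 3 scalings. nkx2.9, a gene of the ventral neural tube, was at 17.4 and 60.1 in wild-type IM and at 279, 298 and 198 in wild-type tails. In spt it was at 11.9, 13.1 and 11 in IM and at 350, 258 and 275 in tails. With the IM signals under 100 in both genotypes, its log2 fold change of 2.42 in wild type ran from 1.67 to 2.93 and that of 3.46 in spt from 2.23 to 4.5 with other settings. Its genomic neighbour pax9 was at 121 and 131 in wild-type IM against 235, 598 and 752 in the tail, with an adjusted p of 0.0243 in limma that rose to 0.0914 at most without 1 array. The gene on the other side of nkx2.9 in the annotation, nkx2.1, known from thyroid and forebrain, was at 152 and 141 against 71.8, 57.2 and 101. nkx2.1 was called lower in wild type after joint normalization, but not under all 3 scalings. pax6b rose by 0.79 in wild type and 0.78 in spt on the log2 scale. pax1b, a sclerotome and pharyngeal gene, fell in both genotypes, from 78.3 and 97 in wild-type IM to 26.0, 28.3 and 29.4 in the tail, all under 100.

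The Meis and Pbx genes, partners of Hox proteins, went in both directions, and some had no kept call. Of the 9, by brightest probe set, 3 were kept higher and 3 lower in wild type, and 3 higher and 1 lower in spt. pbx4 was at 98.4 and 92.5 in wild-type IM and at 741, 1149 and 1171 in wild-type tails. In spt it was at 122, 131 and 130 in IM and at 1137, 1414 and 1322 in tails. The log2 fold changes were 3.19 (SE 0.24) and 3.18 (SE 0.21). meis1b and pbx2 rose as well, meis1b by 1.79 and 2.0 and pbx2 by 1.79 and 0.98 on the log2 scale. The pbx2 call in spt was lost without spt IM replicate 3 or spt tail replicate 5. meis2b went the other way, from 3724 and 2910 in wild-type IM to 186, 227 and 192 in wild-type tails, and from 2221, 2406 and 373 in spt IM to 237, 261 and 285 in spt tails. Its log2 fold changes were -3.93 (SE 0.63) and -2.21 (SE 0.57), and spt IM replicate 5 was the array closest to the tails. meis3 fell in wild type, from 1291 and 688 to 223, 222 and 261. A dimmer meis1a probe set was kept higher in both genotypes, at 1.136 and 1.065, while the brightest was not called, at -0.41 and 0.13.

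six4a and its relatives, the sine oculis family, went in both directions. six4a rose in both genotypes, from 172 and 174 in wild-type IM to 454, 464 and 508 in the tail and from 178, 172 and 211 in spt IM to 343, 247 and 289 in the tail. The log2 fold change was 1.37 (SE 0.19) in wild type and 0.60 (SE 0.17) in spt, and the latter call was lost without spt tail replicate 4, at an adjusted p of 0.0637 in limma. six3b rose in both genotypes by 0.83 and 0.91. six6b, an eye gene, fell in both, from 167 and 193 in wild-type IM to 45.7, 51.4 and 35.4 in the tail. six2a was kept lower in wild type, from 408 and 551 to 105, 106 and 113, and so were six6a and six7. In spt these genes were also called lower after joint normalization, at -1.38, -0.94 and -0.73, but not under all 3 scalings. Neighbouring genes did not move alike here: six6a and six4a have 1 gene between them in the annotation and were at -1.53 and 1.37 in wild type, and the adjacent six2a and six3a were at -1.98 and 0.07.

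Of the 7 Irx genes, which act in neural and kidney patterning in vertebrates, irx1a and irx4a were kept lower in wild-type tails. In spt they were also called lower after joint normalization, at -1.67 and -1.03, but not under all 3 scalings. irx1a was at 575 and 1178 in wild-type IM and at 105, 72.6 and 94.3 in the tail, a log2 fold change of -2.99 (SE 0.57). irx3a and irx5a, which adjoin each other, were not among the calls. irx1b was at 1351, 1711 and 1674 in wild-type tails and at 2257, 1908 and 1977 in spt tails, while the IM arrays lay between 240 and 1870. irx1b was called higher in spt tails after joint normalization, at 1.49, but not under all 3 scalings. By brightest probe set, lhx5 was the LIM-homeobox gene with a kept call, and a second probe set of lhx8a was kept higher in spt tails. lhx5 was called lower in the tail in wild type, from 444 and 312 to 110, 122 and 145, and in spt it was at 107, 78.3 and 92.9 in IM and at 85.4, 141 and 111 in the tail. The test of that difference between the genotypes is the interaction given above, which it did not pass.

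Of the 14 Otx, Gbx, Emx, En and Vsx genes, by brightest probe set, 13 had a log2 fold change below 0 in each genotype after joint normalization (all probe sets: 54.6% in wild type and 55.7% in spt). This fell to 7 of 14 in each with no quantile step (all: 32.6% and 31.2%). The calls kept were 4 lower and 0 higher in wild type and 4 lower and 1 higher, emx3, in spt, and a dimmer emx2 probe set was kept higher in wild type. By its brightest probe set otx1 fell in both genotypes, from 319 and 382 in wild-type IM to 43.0, 43.5 and 45.7 in the tail. In spt it went from 239, 433 and 249 in IM to 28.6, 47.2 and 55.5 in the tail. Its dimmer probe set was not called in wild type, at -0.25, and its lower call in spt, at -1.06, was not kept. en1a, expressed at the midbrain-hindbrain boundary and in muscle pioneer cells, fell in both genotypes, from 262 and 272 in wild-type IM to 59.1, 63.9 and 51.7. In spt it went from 129, 235 and 95.2 to 40.7, 43.9 and 47.2. emx1 and otx5 were kept lower in wild type, and gbx2 and en2a in spt. After joint normalization alone, otx5 was called lower in spt as well, at -1.14, and en2a in wild type, at -0.68. gbx2 stood at 327 and 476 in wild-type IM against 411, 337 and 444 in the tail, with overlap, and at 1044, 1254 and 1091 in spt IM against 501, 485 and 506. Tissue in front of the first somite had been removed at 4/5 somites, and otx2b, a gene of forebrain and midbrain, was still at 328 to 483 on the IM arrays and at 173 to 313 on the tail arrays. Its lower values in the tail lost their direction in wild type under the other scalings. evx1 rose in both genotypes, by 0.77 and 1.04 on the log2 scale.

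Of the 11 genes with more than 1 probe set, 4 had the same sign of the genotype difference in all their probe sets at 4/5 somites and 8 at 21 somites. pax7a, a gene of dorsal neural tube, neural crest and muscle precursors, has 4 probe sets. Their log2 fold changes of spt over wild type ran from -0.63 to 0.02 in IM. The lowest was at 197 and 213 in wild type against 122, 160 and 104 in spt, whereas the brightest was at 277 and 258 against 222, 238 and 210. For emx2 the 2 probe sets were at -0.47 and 0.14 in IM and at 0.40 and 0.02 in the tail. The 2 isl1a probe sets were at 0.55 and 1.08 in IM, and the same spt array was far above the others in both. The dimmer was at 19.5 and 24.9 in wild type against 46.2, 27.4 and 177 in spt, without overlap.

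The homeobox genes of other families, 49 of which were measured from a list of Cdx, Pou, Zeb, Tshz, Dbx, Hnf1 and further genes, were tested in the same fits. None passed the limma test for genotype at either stage, where 2 were higher and 3 lower at an unadjusted p under 0.05 in IM (10.2%, against 7.2% of all) and 6 higher and 2 lower in the tail (16.3%, against 7.44%). Their median log2 fold change was -0.10 in IM, with 15 above 0 and 34 below, and -0.01 in the tail, with 24 above and 25 below. Between tail and IM, after joint normalization, 8 were higher and 14 lower in wild type (16.3% and 28.6%, against 20.8% and 25.3% of all) and 8 and 11 in spt (16.3% and 22.4%, against 21.9% and 26.6%).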

How the data were processed

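The authors hybridized RNA to Affymetrix Zebrafish Genome Arrays and quantified the images with MAS5 5.0. The deposited values are linear intensity values, 1 per probe set and array, and their scaling between arrays is not given in the sources used here. The wild-type 4/5-somite array that the authors excluded, for the reasons given above, was not used here. Of 15617 probe sets, 115 controls were left out and 15502 tested. Groups came from the sample labels. Signals were quantile normalized (each stage alone for genotype and interaction, all 11 arrays together for tail against IM), 16 was added, and limma 3.58.1 in R 4.3.3 was fitted to the log2 values, letting the prior variance follow the mean signal. Adjusted p-values are Benjamini-Hochberg over all probe sets, with a threshold of 0.05. Fold changes on the log2(signal + 16) scale understate those of dim genes. The fit was tested on simulated data that had the same spread for every probe set and both stages. That test therefore does not cover the wider spread of the IM arrays. Other tools were Python 3.11.15, numpy 2.4.6, pandas 2.3.3 and matplotlib 3.10.9.

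Where probe sets shared a gene, the brightest stood for it. All 88 gene IDs matched RefSeq, which gave only gene order. Named genes were, per comparison and direction, up to 10 with the largest change past the threshold or, where fewer than 6 members passed, up to 6 of the smallest p without overlap and with a mean signal of at least 100 in a group, plus the 4 brightest of each family. Other genes were named after their values were seen. The genes, the lists of marker genes (neural, epidermis, muscle, presomitic mesoderm, red blood cells, endothelium, pronephros, notochord, tailbud, lateral plate, neural crest and other homeobox genes) and the tests were chosen with earlier results of these data known. Alternatives were no quantile step, the other scope of it, 1 or 64 added, a filter on signals under 100, no variance trend, and each array left out. 1 member was counted but is not reported by name here.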

Additional observations from a re-analysis of the deposited data

How the results depend on the processing

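With genotype as the contrast, 0 of the 103 probe sets passed under every alternative at both stages. The number passing the interaction moved from 0 to 1 without the variance trend and to 1 with all arrays normalized together, and ran from 0 to 5 when 1 array was left out. Between tail and IM the number of calls ran from 34 to 49 in wild type and from 39 to 52 in spt under other settings, and from 38 to 52 and from 42 to 55 when 1 array was left out, although the split by direction changed as given in the report. A called log2 fold change between tail and IM changed sign for 7 genes, all lower in the tail after joint normalization and none passing afterwards. Without the quantile step otx2b came to 0.0174 and otx2a to 0.11 in wild type, and in spt otx2a came to 0.16, irx4b to 0.0331, nkx2.2a to 0.0713, nkx2.3 to 0.12 and pax7a to 0.0794. With each stage normalized alone, otx2b came to 0.0481, otx2a to 0.14 and nkx3-2 to 0.0021 in wild type, and in spt otx2a came to 0.13, irx4b to 0.0014, nkx2.2a to 0.0465, nkx2.3 to 0.11 and pax7a to 0.0479. These 2 settings remove the step that gives both tissues the same distribution of signals. Calls kept under all 3 scalings but lost without 1 array were those of msx2b, msx3, pax9 and six3b in wild type and of msx1b, msx2a, pax9, pbx2 and six4a in spt. No paired analysis was possible because the replicate numbers of the groups compared within a stage do not repeat. Whether wild-type and spt tail arrays shared clutches is not given in the labels and was not tested, although msx2b was at 229, 305 and 339 in wild-type and at 233, 305 and 383 in spt tails, and pax9 had 1 low array in each genotype. The number of arrays limits the precision, and 17 genes at 4/5 somites and 10 at 21 somites stayed under a signal of 100 on every array.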

Other observations

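Markers of tissues not named above did not pass the limma test at an adjusted p of 0.05 in either genotype comparison, with the exception of cdh17 of the pronephros list, which was higher in spt tails (1 of 11, against 0.181% of all probe sets). In the tail the endothelial list was above 0 for all 5 genes, with a median of 0.29, the notochord list for 8 of 9, with a median of 0.20, the tailbud list for 8 of 13, the lateral plate list for 3 of 8 and the neural crest list for 5 of 12. At an unadjusted p under 0.05 these lists held 2 of 5, 1 of 9, 1 of 13, 0 of 8 and 4 of 12 genes in the tail, against 7.44% of all probe sets. In IM the same lists held 1, 0, 2, 1 and 1, against 7.2% of all.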
